A study of Mus musculus with 12 samples.

Results

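Lysosomal genes were followed in mouse bone marrow cells transduced with a fusion oncogene of leukaemia and with either PRDM16 or its mutant form, PRDM16mut. The set held 37 genes for lysosomal enzymes and their activators, lysosomal membrane proteins, subunits of the proton pump and the transcription factor Tfeb. They were chosen as a list of gene symbols, with earlier results of these data known, and all 37 were found in each of the 3 deposited tables, which shared 22364 symbols. PRDM16 binds DNA through zinc fingers, and the study's title places it among histone methyltransferases and in tumour suppression. MLL-AF9 arises in human acute myeloid leukaemia and E2A-HLF in human acute lymphoblastic leukaemia, and both act on transcription. The study made 3 experiments, each with 2 libraries of cells given PRDM16 and 2 libraries of cells given PRDM16mut. In 2 of them, lineage-negative bone marrow cells of C57BL/6 mice received the PRDM16 form together with MLL-AF9 (written MAF9 in the labels) or with E2A-HLF, and were collected after 10 days in G418 and puromycin. For the third, called MLL-AF9 stable cells here, bone marrow cells that already carried MLL-AF9 received PRDM16 or PRDM16mut and were collected after 10 days in puromycin alone. The medium of all cells held 15% FBS and 10 ng/ml each of IL3, IL6 and SCF, and every group carried a fusion oncogene, so no group is normal bone marrow. The change in PRDM16mut is not described in the labels, nor is it said whether the 2 libraries of a group came from separate cultures. The p-values below therefore reflect library-to-library spread alone, and this can be technical.

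Lysosomes are acidic compartments in which soluble hydrolases break down glycans, lipids and proteins delivered by endocytosis and autophagy. The vacuolar proton pump keeps them acidic, heavily glycosylated membrane proteins line the inner face of the membrane, and transporters export the products. Tfeb and its relatives Tfe3, Mitf and Tfec bind E-box sequences, among them the CLEAR element found near the start of many lysosomal genes. Macrophages, which engulf and digest particles, are rich in lysosomes.

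The E-box core is shown first because it is the sequence through which Tfeb and its relatives are known to act on lysosomal genes. Promoters in the RefSeq table, which cover 250 bases before to 50 bases after each gene's start on build GRCm38.p6, matched 32 of the 37 genes; Npc1, Atp6v1h, Atp6v0d2, Galns and Asah1 were not matched. The motif CACGTG, which reads the same on both strands, was held by 11 of the 32 (34.4%), against 8.09% of 27025 genes in the table and 12.3% of the 8275 genes that were also tested in the MLL-AF9 cotransduction. The longer TCACGTG, searched on both strands and overlapping the first motif by construction, was held by the same 11 genes, against 4.29% and 7.32%. The 11 were Arsa, Atp6v0d1, Atp6v1a, Gaa, Gla, Glb1, Lamp1, Lgmn, Mcoln1, Naglu and Sgsh. Stretches upstream of the start are printed for 7 of them, on the gene's strand with CACGTG in capitals: Lamp1 and Mcoln1, which hold more than 1 copy, Gla, which was called in every experiment, Lgmn, which had the largest difference between experiments, and Glb1, Naglu and Sgsh as further enzymes.
Lamp1, chr8:13159088-13159160, plus strand: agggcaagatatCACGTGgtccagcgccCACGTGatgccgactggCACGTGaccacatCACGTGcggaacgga
Mcoln1, chr8:3500436-3500491, plus strand: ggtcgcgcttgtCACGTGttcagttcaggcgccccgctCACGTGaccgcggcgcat
Gla, chrX:134601182-134601244, minus strand: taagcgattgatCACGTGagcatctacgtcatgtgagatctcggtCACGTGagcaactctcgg
Lgmn, chr12:102439124-102439153, minus strand: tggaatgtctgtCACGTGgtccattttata
Glb1, chr9:114401018-114401047, plus strand: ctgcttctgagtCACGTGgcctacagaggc
Naglu, chr11:101070009-101070038, plus strand: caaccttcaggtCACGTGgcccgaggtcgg
Sgsh, chr11:119355522-119355551, minus strand: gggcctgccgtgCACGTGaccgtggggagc
The Lamp1 stretch holds 4 copies of the motif, at 61, 45, 28 and 15 bases before the start. A match describes these letters only, and binding was not measured here.

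Values are given in FPKM, which counts fragments for each kilobase of a transcript relative to the fragments mapped in that library, and they summed to between 570872 and 683269 per library. The tables carry FPKM alone, so the total depth of a library stays unknown. From the steps among low values, the depth of replicate 2 relative to replicate 1 was 1.63 for PRDM16 in the MLL-AF9 cotransduction and 0.921 to 1.18 in the other 5 groups. Prdm16, the gene that was introduced, was measured at 83.9 and 119 FPKM with PRDM16 against 29.5 and 30.1 with PRDM16mut in the MLL-AF9 cotransduction. In the E2A-HLF cotransduction it was at 49.2 and 56.6 against 56.6 and 43.5, and in the stable cells at 77.9 and 80.0 against 89.1 and 94.6; these values do not tell the 2 forms apart. Ptprc, a marker of blood cells, was at 43.5 to 61.3 FPKM in the 12 libraries, while the B cell genes Pax5 and Ebf1 were below 0.1 in each. The ribosomal RNA gene Rn45s was listed at 0 in both PRDM16 libraries of the MLL-AF9 cotransduction and at 941 to 1554 FPKM in the other 10. The label names lineage-negative cells as the start of the cotransductions, yet neutrophil, monocyte and macrophage genes were measured in every library after culture, as given beside the results below.

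Most of the 37 genes were higher with PRDM16 than with PRDM16mut in the MLL-AF9 cotransduction, led by the protease Lgmn, the lipase Lipa, the macrophage glycoprotein Cd68 and the saposin precursor Psap. Calls were made in limma at an adjusted p (Benjamini-Hochberg) under 0.05, over all genes of a table that reached 1 FPKM in 2 or more of its 4 libraries. Fold changes are PRDM16 minus PRDM16mut on the scale log2(FPKM + 1), which understates the change of low genes. By this rule 27 of 37 genes were called higher and 3 lower, where 69.5% of the 11071 genes tested were called, 35.6% higher and 34.0% lower. The median log2 fold change was 0.56 over the 37 genes and 0.01 over all genes tested. Of the 37 genes, 9 (against 15.5% of all genes tested) were called with a log2 fold change of at least 1 in size, and the libraries of the 2 groups did not overlap for 33, a share of 89.2% beside 86.3% of all genes tested. In bulk RNA, fewer cells of a type and less RNA per cell cannot be told apart.

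**Figure D1:**
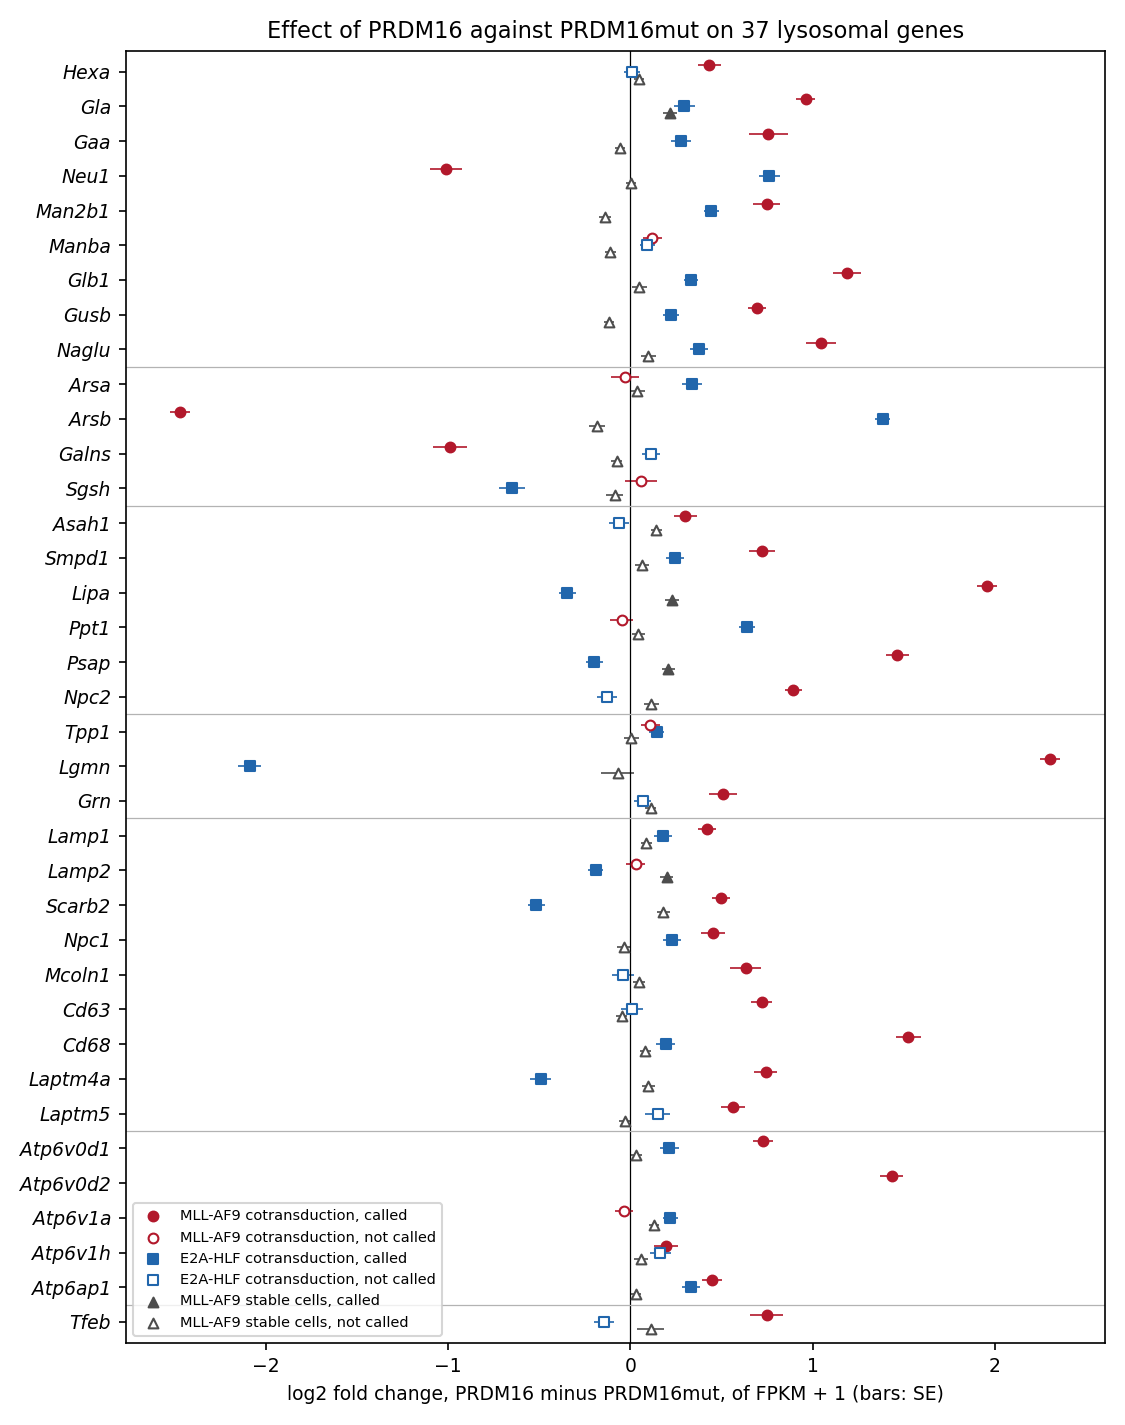
Log2 fold change, PRDM16 minus PRDM16mut on the scale log2(FPKM + 1), of each lysosomal gene in each experiment, with genes grouped by role; bars are standard errors from limma and filled points were called. Most points of the MLL-AF9 cotransduction lie right of 0, with Arsb at -2.47 as the lowest, while those of the stable cells lie between -0.18 and 0.23.

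Among the 9 glycosidases, which cut sugars from glycans and glycolipids, 7 were called higher with PRDM16 in the MLL-AF9 cotransduction, 1 lower and 1 was not called. Gla, the alpha-galactosidase that acts on globotriaosylceramide, was measured at 34.9 and 35.0 FPKM with PRDM16 against 17.4 and 17.5 with PRDM16mut. The 2 groups were far apart for the spread within them, at a log2 fold change of 0.96 (SE 0.0508, limma adjusted p = 5.65e-05). Neu1, the sialidase, went the other way, at 19.2 and 22.6 FPKM with PRDM16 against 43.3 and 42.6 with PRDM16mut. Its log2 fold change was -1.01 (SE 0.0856, limma adjusted p = 0.000285). The other called glycosidases, Hexa, Gaa, Man2b1, Glb1, Gusb and Naglu, rose by 0.43 to 1.19 on the log2 scale, with Glb1, the beta-galactosidase, at the top. Manba, the beta-mannosidase, was not called, at means of 18.3 and 16.7 FPKM.

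None of the 4 sulfatases was called higher in that experiment, 2 were called lower and 2 were not called. These enzymes remove sulfate groups from glycosaminoglycans or sulfatides. Arsb, which acts on dermatan and chondroitin sulfate, was measured at 7.36 and 7.53 FPKM with PRDM16 against 46.5 and 45.0 with PRDM16mut. Both PRDM16 libraries lay far below both PRDM16mut libraries, a 6.15-fold lower mean FPKM and a log2 fold change of -2.47 (SE 0.0545, limma adjusted p = 4.37e-06), the largest in size among the 37 genes in that experiment. Galns, which acts on keratan sulfate, was the other one that fell, from a mean of 24.3 to 11.8 FPKM. Arsa and Sgsh had log2 fold changes of -0.03 and 0.06 and were not called. In the GENCODE annotation, which is of another build than the files, the antisense gene Gm26527 overlaps 48.2% of Arsb's exon bases. How strands were counted is not stated in the labels, so reads of that gene and of Arsb cannot be told apart.

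Of the 6 lipid enzymes and lipid transfer proteins, 5 were called higher and none lower with PRDM16 beside MLL-AF9. Lipa, the acid lipase that frees cholesterol and fatty acids, was measured at 145 and 137 FPKM with PRDM16 against 35.7 and 35.3 with PRDM16mut. That is a 3.97-fold higher mean, at a log2 fold change of 1.96 (SE 0.0541, limma adjusted p = 8.16e-06). Psap encodes the precursor of the saposins, small proteins that present sphingolipids to their hydrolases. It was measured at 1449.5 and 1594 FPKM with PRDM16 against 551 and 549 with PRDM16mut, so that the PRDM16 libraries stood highest of the 12, across tables whose common scaling is not stated. Its log2 fold change was 1.47 (SE 0.0619, limma adjusted p = 2.86e-05). Npc2, which hands cholesterol to the limiting membrane, Smpd1, the acid sphingomyelinase, and Asah1, the acid ceramidase, rose by 0.89, 0.72 and 0.30. Ppt1, the thioesterase that removes palmitate from proteins, was measured at 43.5 and 40.0 FPKM with PRDM16 against 42.4 and 43.8 with PRDM16mut, and the groups overlapped. Without replicate 2 of PRDM16mut, Asah1 had an adjusted p of 0.14 and lost its call.

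Among the protein-directed genes, Lgmn and Grn were called higher with PRDM16 beside MLL-AF9, and Tpp1 was not called. Lgmn, the legumain protease that cuts after asparagine and processes other lysosomal proteases, was measured at 213 and 228 FPKM with PRDM16 against 43.4 and 44.3 with PRDM16mut. Its mean was 5.03-fold higher, the largest rise among the 37 genes, at a log2 fold change of 2.30 (SE 0.0561, limma adjusted p = 5.55e-06). Grn, the progranulin precursor, rose by 0.51. Tpp1, the tripeptidyl peptidase, was at means of 57.9 and 53.6 FPKM.

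Of the 9 membrane proteins, 8 were called higher in that experiment and none lower. Cd68, a glycoprotein of macrophage lysosomes and endosomes, was measured at 269 and 300.3 FPKM with PRDM16 against 99.0 and 97.2 with PRDM16mut (log2 fold change 1.53, SE 0.0676, limma adjusted p = 3.34e-05). Lamp1 and Lamp2 are the related proteins that make up much of the lysosomal membrane coat, and Lamp1 alone was called. Lamp1 was measured at 444 and 467 FPKM with PRDM16 against 341 and 338 with PRDM16mut and rose by 0.42. Lamp2 was measured at 132 and 126 FPKM with PRDM16 against 126 and 127 with PRDM16mut, which overlap. Laptm4a and Laptm5 are 2 relatives that span the membrane, of which Laptm5 is known from blood cells. Laptm4a stood at 119 and 109 FPKM with PRDM16 against 68.8 and 66.7, and Laptm5 at 546 and 612 against 390 and 392. They rose by 0.74 and 0.56 on the log2 scale. Scarb2, the receptor that carries glucocerebrosidase to lysosomes, stood at 43.0 and 43.2 FPKM against 30.3 and 30.2 and rose by 0.50. Npc1, Mcoln1 and Cd63 also rose, by 0.45, 0.63 and 0.72.

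For the proton pump, 4 of 5 genes were called higher with PRDM16 beside MLL-AF9 and none lower. The d subunit of the membrane sector comes from 2 genes, Atp6v0d1, which is widely expressed, and Atp6v0d2, which is known from osteoclasts and macrophages. Atp6v0d1 was measured at 194 and 206 FPKM with PRDM16 against 122 and 119 with PRDM16mut, a log2 fold change of 0.73. Atp6v0d2 was measured at 36.97 and 34.8 FPKM with PRDM16 against 12.2 and 13.1 with PRDM16mut, a log2 fold change of 1.43 (SE 0.0641, limma adjusted p = 3.41e-05). Atp6v0d2 thus made up 16.0% and 14.4% of the summed FPKM of the pair with PRDM16 and 9.13% and 9.89% with PRDM16mut. Atp6v1h, a regulatory subunit, rose by 0.20 and the accessory subunit Atp6ap1 by 0.45. Without either PRDM16mut library in turn Atp6v1h was no longer called, nor was it called without the filter on low values, under quantile normalization or with each library scaled to the same total; its adjusted p reached 0.27 over the alternatives. Atp6v1a, the catalytic subunit, was not called, at means of 88.1 and 90.2 FPKM.

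Tfeb was measured at 11.7 and 13.6 FPKM with PRDM16 against 7.45 and 6.78 with PRDM16mut in the MLL-AF9 cotransduction. Both PRDM16 libraries lay above both PRDM16mut libraries, and it rose by 0.75 on the log2 scale (SE 0.0899, limma adjusted p = 0.00103). The summed FPKM of all 37 genes was 6932 and 7295 with PRDM16 and 4162 and 4075 with PRDM16mut, and the ratio of the means was 1.73. Psap and Cd63 were the most abundant, at 21.4% and 19.3% of the mean sum with PRDM16, and without both the ratio was 1.54.

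**Figure D2:**
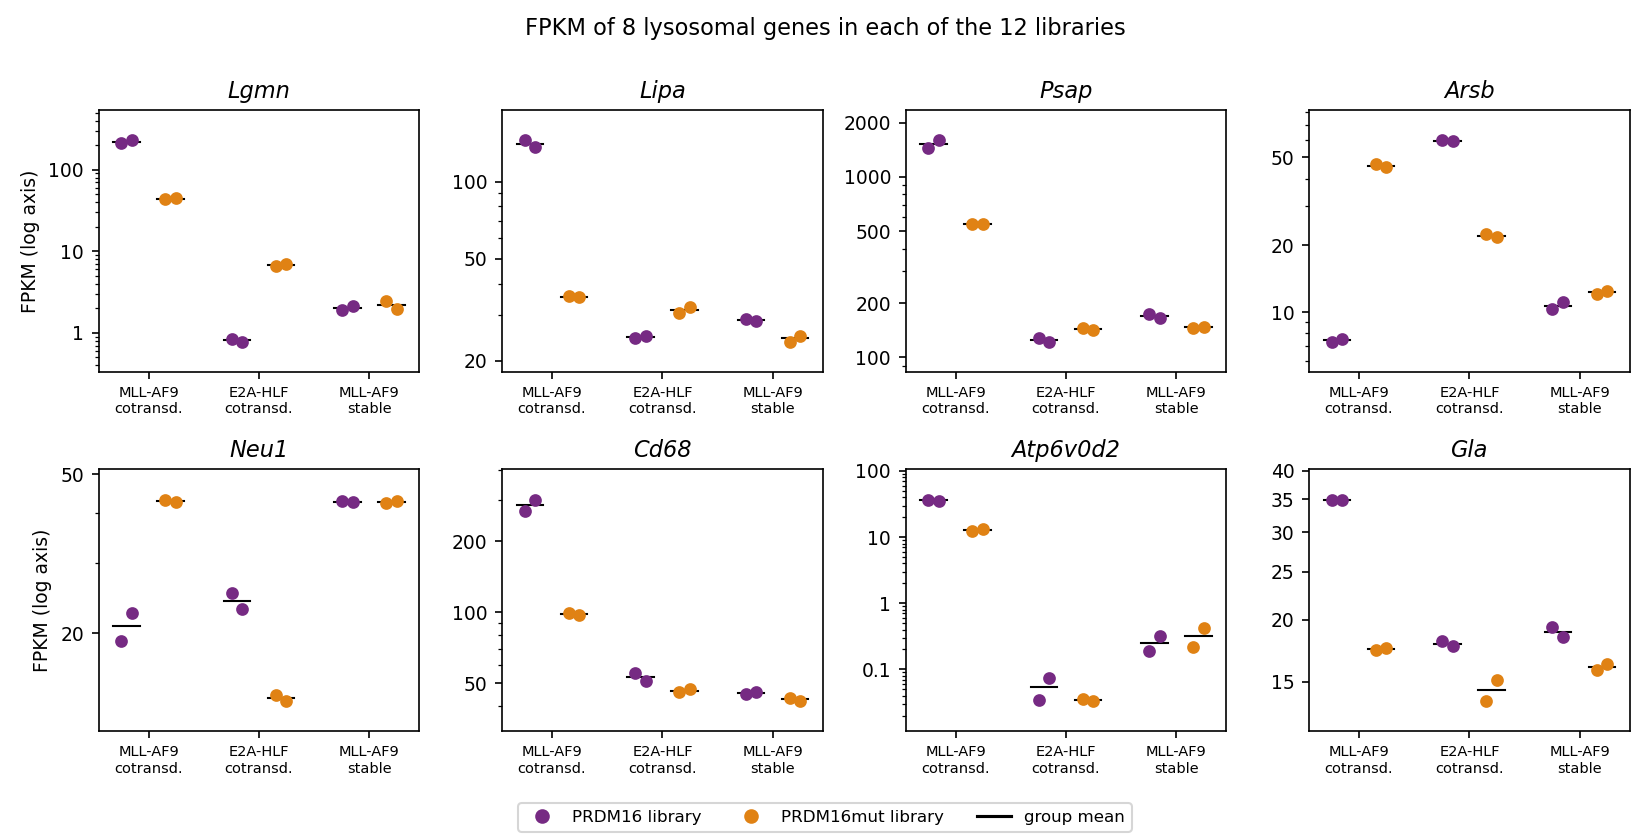
FPKM on log axes of 8 lysosomal genes in each of the 12 libraries, as points, with the mean of each group as a line; each experiment has 2 PRDM16 and 2 PRDM16mut libraries. Lgmn and Arsb stand on opposite sides in the 2 cotransductions, while Atp6v0d2 is below 0.5 FPKM outside the MLL-AF9 cotransduction.

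Markers of mature blood cells moved between the same groups. With PRDM16, 9 of the 13 tested monocyte and macrophage markers were called higher and 3 lower, but their summed FPKM was 373 and 381 with PRDM16 and 1362 and 1332 with PRDM16mut. Csf1r, the macrophage growth factor receptor, was measured at 60.2 and 67.2 FPKM with PRDM16 against 11.7 and 12.2 with PRDM16mut. Emr1, of the same list, was not called, at 32.4 and 34.5 FPKM with PRDM16 against 31.3 and 30.7 with PRDM16mut. All 12 neutrophil markers were called lower with PRDM16, with sums of 1186 and 1124 FPKM against 54435 and 53358. The dendritic cell markers summed to 1045 and 1141 FPKM against 36.4 and 37.6, with Siglech below 0.1 in each library, and 3 of 3 tested were called higher. Of 10 tested mast cell and basophil markers 9 were called lower and 1 higher, with sums of 212 and 213 against 2205 and 2187. Osteoclast markers summed to 36.3 and 42.6 FPKM against 29.7 and 30.5, with Calcr and Ocstamp below 0.1, and 3 of 4 tested were called higher and none lower. All 5 tested erythroid markers were called higher, with sums of 103 and 99.4 FPKM against 21.2 and 20.5. The progenitor genes Kit and Cd34 fell, Kit at 5.29 and 6.07 FPKM with PRDM16 against 46.8 and 47.5, and Cd34 at 5.38 and 4.59 against 20.8 and 21.1. The part of these cell types in the lysosomal values was not tested.

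Beside E2A-HLF the lysosomal genes split, with most glycosidases and pump subunits higher with PRDM16 and Lgmn, Lipa, Psap, Scarb2 and Laptm4a lower. Of the 36 genes tested, 18 were called higher and 7 lower, where 43.8% of the 11010 genes tested were called, 22.7% higher and 21.1% lower. The median log2 fold change was 0.16 over the lysosomal genes and 0.01 over all genes tested. Only Lgmn and Arsb were called with a log2 fold change of at least 1 in size, as were 5.75% of all genes tested. For 32 of the 36 the libraries of both groups stood apart, beside 73.7% of all genes tested. With quantile normalization the counts were 15 higher and 9 lower.

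Of the 9 glycosidases, 7 were called higher in the E2A-HLF cotransduction and none lower. Neu1 was measured at 25.2 and 23.1 FPKM with PRDM16 against 14.0 and 13.6 with PRDM16mut, a log2 fold change of 0.76 (SE 0.0567, limma adjusted p = 0.000185). Gla was measured at 18.1 and 17.7 FPKM with PRDM16 against 13.7 and 15.1 with PRDM16mut, and it rose by 0.30. Gaa, Man2b1, Glb1, Gusb and Naglu rose by 0.22 to 0.44, while Hexa and Manba were not called. Gusb, at the lower end of that range, had an adjusted p of 0.0617 without replicate 2 of PRDM16.

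The sulfatases went in both directions there, with Arsb and Arsa higher, Sgsh lower and Galns not called. Arsb was measured at 59.6 and 59.1 FPKM with PRDM16 against 22.4 and 21.8 with PRDM16mut, a log2 fold change of 1.38 (SE 0.0414, limma adjusted p = 5.62e-06). These PRDM16 libraries stood highest of the 12 for this gene, across tables. Arsa, which acts on sulfatides, rose by 0.34. It shares 19.8% of its exon bases with C230037L18Rik on the other strand, so reads of the overlap cannot be assigned to either gene here. Sgsh, which acts on heparan sulfate, was measured at 0.960 and 1.05 FPKM with PRDM16 against 2.23 and 2.04 with PRDM16mut, a log2 fold change of -0.65. Its PRDM16 libraries did not both reach 1 FPKM. Sgsh thus passed the filter on low values only with its PRDM16mut libraries, the group where it is high. Its call, included in the counts above, is given as a description. Sgsh shares 21.9% of its exon bases with Card14 on the other strand, and Card14 was at 0.147 and 0.161 FPKM with PRDM16 against 0.265 and 0.289 with PRDM16mut.

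Lipid and protein-directed genes were divided beside E2A-HLF. Ppt1 was measured at 54.5 and 53.7 FPKM with PRDM16 against 33.4 and 35.3 with PRDM16mut, a log2 fold change of 0.64 (SE 0.0458, limma adjusted p = 0.00016). Smpd1 rose by 0.25. Lipa was measured at 24.5 and 24.9 FPKM with PRDM16 against 30.8 and 32.5, and fell by 0.35. Psap was measured at 128 and 122 FPKM against 146 and 142, and fell by 0.20 (limma adjusted p = 0.0174); it was not called without replicate 2 of PRDM16, and its adjusted p ran from 0.0037 to 0.13 over the alternatives. Lgmn was measured at 0.849 and 0.784 FPKM with PRDM16 against 6.51 and 6.95 with PRDM16mut, an 8.24-fold lower mean FPKM and a log2 fold change of -2.09. Lgmn passed the filter on low values through its PRDM16mut libraries alone, the group where it is high; its call, included in the counts above, is given as a description. Tpp1 was called higher by 0.15, but the call was lost without any 1 of the 4 libraries, under quantile normalization, with each library scaled to the same total and without the variance trend, with adjusted p up to 0.153. Asah1, Npc2 and Grn were not called.

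Among the 9 membrane proteins in that experiment, Lamp1, Npc1 and Cd68 were called higher, Lamp2, Scarb2 and Laptm4a lower, and Mcoln1, Cd63 and Laptm5 were not called. Scarb2 was measured at 16.6 and 16.1 FPKM with PRDM16 against 24.3 and 23.2 with PRDM16mut, a log2 fold change of -0.51 (SE 0.047, limma adjusted p = 0.000418). Laptm4a was measured at 65.3 and 61.9 FPKM against 86.3 and 93.5 and fell by 0.49, while Laptm5 stood at 248 and 264 against 219 and 243. Lamp1 and Lamp2 moved apart. Lamp1 stood at 114 and 112 FPKM with PRDM16 against 96.0 and 103 (log2 fold change 0.18), and Lamp2 at 80.7 and 81.3 against 91.4 and 93.6 (log2 fold change -0.19). Cd68 was measured at 55.6 and 51.4 FPKM against 46.0 and 47.2, a log2 fold change of 0.19. These last changes are small: the calls of Lamp1, Lamp2 and Cd68 were each lost when replicate 1 of PRDM16 was left out, those of Lamp1 and Lamp2 also without replicate 2 of PRDM16, and those of Lamp1 and Cd68 also without replicate 1 of PRDM16mut. Lamp1 and Cd68 were also not called without the filter on low values or under quantile normalization. The adjusted p of Lamp1, Lamp2 and Cd68 reached 0.128, 0.0736 and 0.142. The call of Npc1 was lost without replicate 2 of PRDM16mut, at an adjusted p of 0.0555.

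Of the 4 pump genes tested beside E2A-HLF, 3 were called higher and none lower. Atp6v0d1 was measured at 72.4 and 68.9 FPKM with PRDM16 against 58.8 and 62.7 with PRDM16mut and rose by 0.22; it was not called without replicate 1 of PRDM16 or replicate 1 of PRDM16mut, with adjusted p up to 0.0855. Atp6v1a and Atp6ap1 rose by 0.22 and 0.33. Atp6v0d2 was at 0.034 to 0.074 FPKM in the 4 libraries and was not tested. Tfeb was measured at 6.65 and 6.82 FPKM with PRDM16 against 7.74 and 7.34 with PRDM16mut and was not called (log2 fold change -0.14, limma adjusted p = 0.0824). Summed FPKM of the 37 genes was 2430 and 2387 with PRDM16 and 2210.5 and 2313 with PRDM16mut.

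Monocyte and macrophage markers summed to 3222 and 3032 FPKM with PRDM16 against 1645 and 1777 with PRDM16mut beside E2A-HLF, with 4 of 7 tested called higher and 3 lower and with C1qa, C1qc and Cx3cr1 below 0.1. Neutrophil markers summed to 1953 and 1868 against 674 and 689, with 9 of 10 tested called higher and none lower. Erythroid markers summed to 67.1 and 66.0 against 165 and 174, with 2 of 6 tested called higher and 1 lower. Dendritic cell markers summed to 12.7 and 13.4 against 57.8 and 59.5, with 1 of 4 tested called higher and 3 lower. Siglech and Xcr1 of that list were below 0.1. For mast cell and basophil markers the sums were 200 and 195 against 152 and 158, with 5 of 7 tested called higher and 1 lower. Cd34 fell, at 42.6 and 43.6 FPKM with PRDM16 against 55.9 and 57.0, and Kit was not called. Their part in the lysosomal values was not tested.

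In the MLL-AF9 stable cells few lysosomal genes were called. Gla, Lipa, Psap and Lamp2 were called higher with PRDM16 and none lower, 4 of 36 tested, where 6.36% of the 10580 genes tested were called, 4.20% higher and 2.16% lower. At an unadjusted p under 0.05 (limma), 12 of the 36 were higher and 4 lower. The share of all genes at that limit was not computed, and the 6.36% holds for the adjusted limit alone. The median log2 fold change was 0.05 over the lysosomal genes and 0.01 over all genes tested, and the lysosomal genes ran from -0.18 to 0.23. For 27 of the 36 the libraries of both groups stood apart, beside 60.6% of all genes tested.

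Gla was measured there at 19.3 and 18.4 FPKM with PRDM16 against 15.8 and 16.3 with PRDM16mut (log2 fold change 0.22, limma adjusted p = 0.038). Lipa was measured at 29.1 and 28.4 FPKM against 23.7 and 25.0 (log2 fold change 0.23, limma adjusted p = 0.0359). Psap was measured at 174 and 166 FPKM against 146 and 148 (log2 fold change 0.21, limma adjusted p = 0.0369). Lamp2 was measured at 169 and 174 FPKM against 146 and 152 (log2 fold change 0.20, limma adjusted p = 0.0379). For each of these 4 genes both PRDM16 libraries lay above both PRDM16mut libraries. Each call was lost when any 1 of the 4 libraries was left out, without the filter on low values and without the variance trend, with adjusted p up to 0.168, 0.154, 0.179 and 0.199 for Gla, Lipa, Psap and Lamp2. Psap was also not called when the spread was shared over all 12 libraries. The share of higher calls over all genes in this experiment was 66.0% as deposited and 34.3% with each library scaled to the same total, where 4 lysosomal genes were called higher and 4 lower.

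Genes with large changes in the cotransductions differed little in the stable cells. Lgmn was measured at 1.92 and 2.15 FPKM with PRDM16 against 2.43 and 1.95 with PRDM16mut, which overlap. Arsb stood at 10.3 and 11.1 against 12.05 and 12.5, Neu1 at 42.8 and 42.6 against 42.4 and 42.9, and Cd68 at 45.1 and 45.9 against 43.6 and 42.3. None of these 4 was called. Scarb2 stood at 23.6 and 22.4 FPKM against 20.4 and 19.9 (limma adjusted p = 0.0541), Sgsh at 5.49 and 5.23 against 5.80 and 5.69, and Ppt1 at 46.9 and 48.1 against 44.8 and 47.1. Lamp1 was at 360.4 and 365 against 340 and 343. Laptm4a was at 40.3 and 41.6 against 37.5 and 38.7, and Laptm5 at 273 and 268 against 273 and 279. Among the pump genes, Atp6v0d1 was at 129 and 125 FPKM against 123 and 126, and Atp6v0d2 at 0.191 and 0.316 against 0.220 and 0.423 and not tested. Tfeb was measured at 3.65 and 3.93 FPKM against 3.18 and 3.69, which overlap. Summed FPKM of the 37 genes was 2970 and 2940 with PRDM16 and 2841 and 2887 with PRDM16mut. Neutrophil markers summed to 15504 and 15636 FPKM against 14782 and 15379, and monocyte and macrophage markers to 1535 and 1534 against 1386 and 1428.

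The effect of PRDM16 on lysosomal genes differed between the cotransductions most for Lgmn and Arsb. Differences of effect come from a single limma fit to the 12 libraries, over the 9488 genes above the low-value filter in all 3 tables; any 2 effects share no library, but each effect enters 2 of the 3 tests. Between the MLL-AF9 and the E2A-HLF cotransductions, 32 of 36 lysosomal genes differed, 26 with the larger value beside MLL-AF9 and 6 with the smaller, where 71.4% of all genes tested differed. Arsb had a log2 difference of -3.85 (SE 0.0611, limma adjusted p = 5.35e-12). Lgmn had one of 4.39, a description only, since it entered the test through the PRDM16mut libraries of the E2A-HLF experiment, where it is high. Sgsh has the same limit, and both genes are included in the 32 and in the 26. Lipa, Psap and Scarb2 differed by 2.31, 1.66 and 1.01 and Neu1 by -1.77, and each of these had been called in opposite directions in the 2 experiments. In all, 12 genes were called higher in both cotransductions, 5 higher beside MLL-AF9 and lower beside E2A-HLF (Laptm4a, Lgmn, Lipa, Psap and Scarb2), and 2 the reverse (Arsb and Neu1). These counts were not made over all genes, of which 69.5% were called beside MLL-AF9 and 43.8% beside E2A-HLF. Tfeb differed by 0.89 (limma adjusted p = 3.98e-05).

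**Figure D3:**
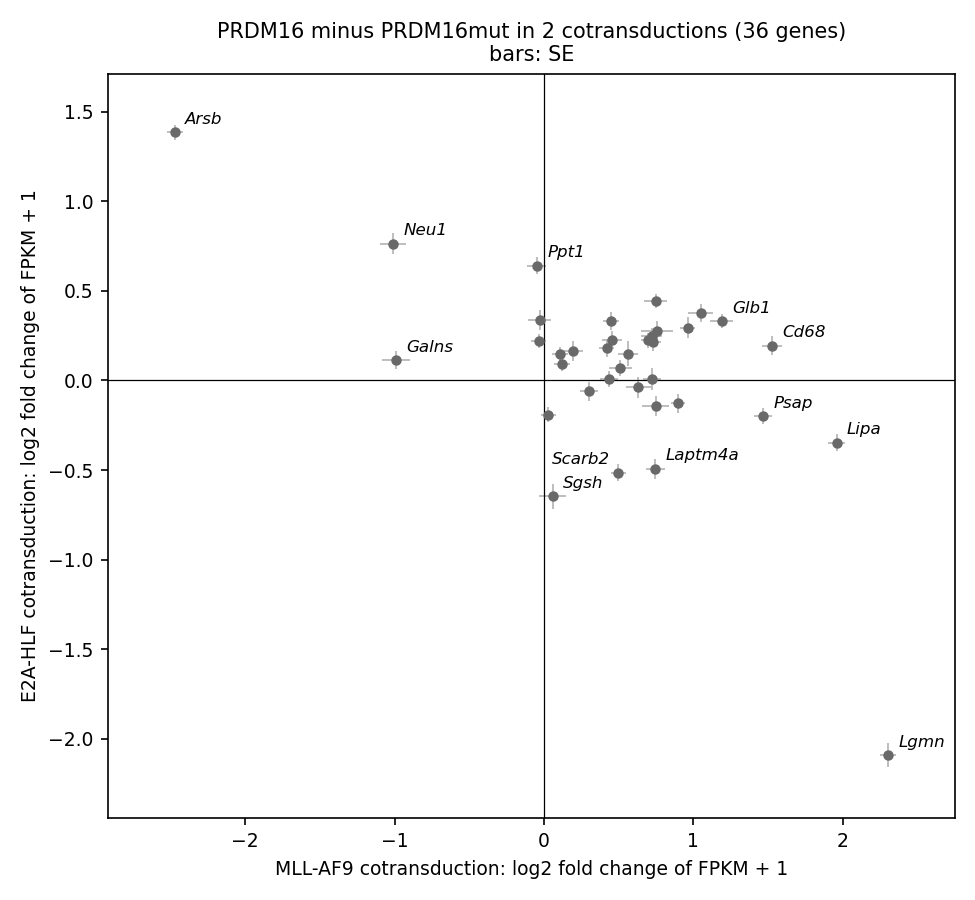
Log2 fold change, PRDM16 minus PRDM16mut, of 36 lysosomal genes in the E2A-HLF cotransduction against that in the MLL-AF9 cotransduction. Lgmn, Lipa, Psap, Scarb2 and Laptm4a lie lower right, Arsb and Neu1 upper left.

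Against the stable cells, 30 of 36 lysosomal genes differed in the MLL-AF9 cotransduction, 25 with the larger value in the cotransduction and 5 with the smaller, where 64.0% of all genes tested differed. The leading log2 differences were 2.37 for Lgmn, -2.29 for Arsb, 1.73 for Lipa, 1.44 for Cd68 and 1.26 for Psap. Gla, called higher in both of these experiments, differed by 0.74 (limma adjusted p = 5.29e-06). Between the E2A-HLF experiment and the stable cells 20 of 36 differed, 12 with the larger value beside E2A-HLF and 8 with the smaller, where 37.1% of all genes tested differed. The leading differences were -2.02 for Lgmn, with the same limit, 1.57 for Arsb, 0.76 for Neu1, -0.70 for Scarb2 and 0.60 for Ppt1. Lgmn and Sgsh, which has that limit too, are included in the 20 and in the 8. For Gla the difference was 0.08 (limma adjusted p = 0.403).

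Genes with and without CACGTG in the matched promoter are given side by side, to be read beside the 69.5%, 43.8% and 6.36% of all genes tested that were called in the MLL-AF9 cotransduction, the E2A-HLF experiment and the stable cells. In the MLL-AF9 cotransduction, 8 of the 11 with the motif were called higher, none lower and 3 were not called, and of the 21 without it 15 were higher, 2 lower and 4 not called. For the E2A-HLF cotransduction the counts were 8 higher, 2 lower and 1 not called against 9, 5 and 7. For the stable cells they were 1, 0 and 10 against 3, 0 and 18. The 2 lower calls with the motif beside E2A-HLF were Lgmn and Sgsh. Both genes passed the low-value filter there only with their PRDM16mut libraries, where they are high, so these calls are given as a description. Of the 7 genes called in opposite directions in the cotransductions, only Lgmn held the motif; Laptm4a, Lipa, Psap, Scarb2, Arsb and Neu1 have no match in this window.

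Other genes of the lysosome, from lists that do not overlap the 37, were counted in the same fits. Of 34 further hydrolases and activators tested beside MLL-AF9, 25 were called higher with PRDM16 and 2 lower; over all genes tested in that experiment 35.6% were higher and 34.0% lower, which holds beside each list that follows. Pld3, a nuclease, Scpep1, a carboxypeptidase, and Naaa, an amidase, rose by 1.72, 1.71 and 1.66. Arsg, a sulfatase, and Rnaset2b, a ribonuclease with a near-identical copy that makes its value uncertain, were called lower at -0.83 and -0.41. Arsg passed the low-value filter through its PRDM16mut libraries alone, and Hyal1, among the 25, through its PRDM16 libraries alone. The calls of Arsg and Hyal1, included in the counts, are given as a description. Of 25 further membrane proteins tested, 15 were higher and 3 lower. The iron and manganese transporter Slc11a1 and the tetraspanins Tspan8 and Cd9 rose by 2.15, 1.73 and 1.67, while Slc36a1, Mfsd8 and Tpcn2 were called lower at -0.83, -0.37 and -0.24.

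Of 14 further pump subunits tested in the same experiment, 7 were higher and 1 lower. Atp6v1g1, Atp6v1f and Tcirg1 stood at 0.74, 0.63 and 0.54 and Atp6ap2 at -0.78. Of the 7, Atp6v1g2 passed the low-value filter only with its PRDM16 libraries, as 1 PRDM16mut library was at 0.947 FPKM. Its call is given as a description. The genes that deliver enzymes to lysosomes did not move one way, with 4 of 17 higher and 5 lower. Gga2, Cln8 and Cln6 rose by 0.83, 0.62 and 0.59. Sort1, a sorting receptor, Igf2r, the receptor that binds enzymes marked with mannose phosphate, and Ap1g1 were called lower at -2.11, -1.51 and -0.33. In the list of Tfeb's relatives and of the machinery that docks mTORC1 on lysosomes, 8 of 21 were higher and 7 lower. The GTPases Rragd and Rragb rose by 1.73 and 0.83 (Rragd passed the low-value filter through its PRDM16 libraries alone) and Fnip2 by 1.08, while Tfec, Fnip1 and Mlst8 were called lower at -1.72, -0.58 and -0.53. Tfe3, named here after its values were seen, stood at 22.7 and 25.4 FPKM with PRDM16 against 12.7 and 13.4 with PRDM16mut and rose by 0.83; Tfec stood at 31.5 and 26.5 against 95.6 and 99.5.

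Beside E2A-HLF, where 22.7% of all genes tested were called higher and 21.1% lower, most of these lists held calls in both directions. Of 32 further hydrolases tested, 9 were higher and 9 lower, with Man2b2 and Pla2g15 at 0.66 and 0.41 and Acp5, Prcp and Scpep1 at -0.76, -0.65 and -0.63. Of 23 membrane proteins 7 were higher and 7 lower, with Tpcn1, Cd82 and Slc36a1 at 0.45, 0.36 and 0.29 and Laptm4b, Mcoln2 and Slc29a3 at -1.05, -0.78 and -0.38. Of 14 pump subunits 7 were called higher and none lower by limma (at an unadjusted p under 0.05, 1 was lower), led by Atp6v0a1 at 1.63, Atp6v1b2 at 0.40 and Atp6ap2 at 0.32. Among delivery genes 3 of 17 were higher and 4 lower, with Nagpa, Ap1g1 and Gga3 at 0.44, 0.33 and 0.21 and Igf2r, Gga2 and Cln6 at -1.42, -0.52 and -0.31. In the list of Tfeb's relatives and mTORC1 docking, 4 of 21 were higher and 3 lower. Lamtor4, listed there under the older symbol 0910001L09Rik, Rragc and Lamtor3 were at 0.71, 0.27 and 0.22. Rragd, Rragb and Tfec were at -1.29, -0.45 and -0.25. Igf2r and Rragd passed the low-value filter here through their PRDM16mut libraries alone.

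In the stable cells, where 4.20% of all genes tested were called higher and 2.16% lower, 3 of 33 further hydrolases (Arsg, Naaa and Gm2a at 0.35, 0.31 and 0.30) were called higher and none lower. Cd9 at 0.33 and Cln3 at -0.19 were called among 23 membrane proteins, Atp6v1g1 at 0.21 among 14 pump subunits, and Igf2r at -0.22 and Gga3 at -0.19 among 17 delivery genes. None of 19 genes in the list of Tfeb's relatives and mTORC1 docking was called by limma. At an unadjusted p under 0.05, 5 were higher and 2 lower, and this count was not made over all genes.

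**Figure D4:**
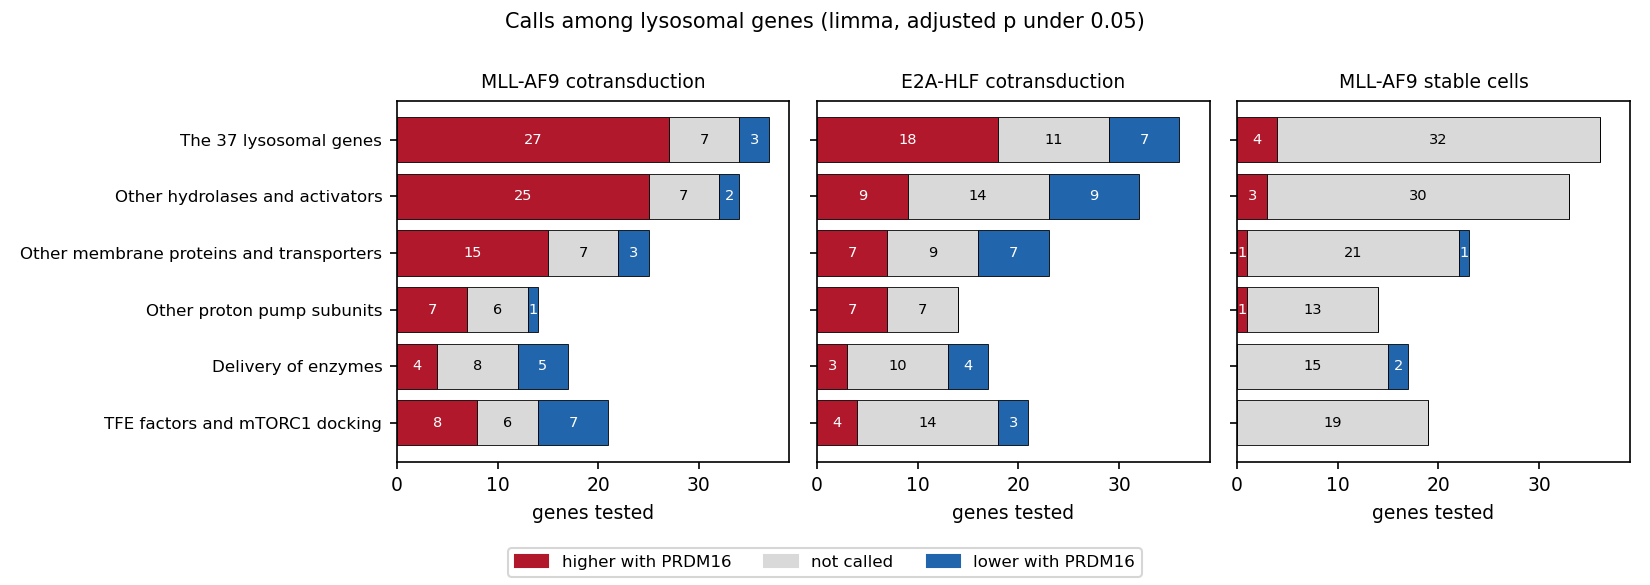
Number of tested genes called higher, not called and called lower with PRDM16 (limma), for the 37 lysosomal genes and the 5 further lists, in each experiment. Higher calls lead in the top 2 bars of the MLL-AF9 cotransduction, at 27 of 37 and 25 of 34, and are few in the stable cells, at 4 of 36 and 3 of 33.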

How the data were processed

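Per the labels' protocols, RNA was taken up in Trizol, cleaned on a column, primed with oligo(dT) and prepared with the TruSeq v2 kit. The authors deposited 3 tables of FPKM, 1 per experiment, by gene symbol; Bowtie2 2.0.0.7, TopHat2 2.0.3, Cuffdiff and mm9 are named per the submitters' processing notes. Not given in the sources used here are the annotation, the scaling between libraries and how strands were counted. The 37 genes, the lists and the tests were chosen with earlier results of these data known.

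Each table was fitted alone in R 4.3.3 with limma 3.58.1 on log2(FPKM + 1), with a trend of variance on mean level, two-sided, over genes that reached 1 FPKM in 2 or more of 4 libraries. Benjamini-Hochberg adjustment ran over all genes of a table. The test rests on variance shared across genes, since 2 against 2 libraries allow no exact permutation p below 0.333. The procedure was tested on simulated data: a first criterion, on the share of smaller changes recovered, was missed for the MLL-AF9 cotransduction and was then replaced by limits on bias, false calls and the recovery of larger changes, which were met. Relative depth came from FPKM under 0.1, a limit set after a first look at the data: after 1 factor per group, 70.3% to 77.9% of the ratios of 2 replicates matched a ratio of integers no larger than 6 to within 0.5%. Symbols that a spreadsheet had turned into dates (25 to 27 per table) were not named. Values in each library are given for genes called in all 3 experiments, the 6 called genes of largest change in each, the 5 largest differences of effect in each test, 3 pairs of related genes and Tfeb. Of each further list, up to 3 called genes of largest and 3 of smallest log2 fold change are named; a few genes of these lists are not reported here. Alternatives were another pseudocount, other filters and scalings, no variance trend, a spread shared by 12 libraries, a replicate block, and each library left out. A comparison of protein sequences was not made.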

Additional observations from a re-analysis of the deposited data

Results flagged for a closer look

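The effect of PRDM16 against PRDM16mut differed between experiments for many lysosomal genes, and the 5 largest differences of each test (limma, 1 fit of 12 libraries) are given as log2 differences. For the MLL-AF9 minus the E2A-HLF cotransduction they were 4.39 for Lgmn, -3.85 for Arsb, 2.31 for Lipa, -1.77 for Neu1 and 1.66 for Psap, with adjusted p of 5.3e-08 or less for the genes other than Lgmn. All 5 genes were called in opposite directions in the 2 experiments, with groups that did not overlap in either. Groups also did not overlap for 86.3% of all genes tested beside MLL-AF9 and 73.7% beside E2A-HLF. Beside E2A-HLF, the call of Psap was not kept under every alternative, and that of Lgmn is a description. For the MLL-AF9 cotransduction minus the stable cells the 5 largest differences were 2.37 for Lgmn, -2.29 for Arsb, 1.73 for Lipa, 1.44 for Cd68 and 1.26 for Psap, with adjusted p of 1.71e-07 or less. For the E2A-HLF cotransduction minus the stable cells they were -2.02 for Lgmn, 1.57 for Arsb, 0.76 for Neu1, -0.70 for Scarb2 and 0.60 for Ppt1, with adjusted p of 0.000132 or less for the genes other than Lgmn. Lgmn entered the tests with the E2A-HLF cotransduction through its PRDM16mut libraries alone, so its differences there are given as a description. The share of all genes that differed, 71.4%, 64.0% and 37.1% in the 3 tests, stands beside these. The experiments also differ in the neutrophil, monocyte and macrophage markers given in the report, whose part in these differences was not tested.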

How the results depend on the processing

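No lysosomal gene that was called changed sign under an alternative. Under every alternative that could test them (13, but 12 for Atp6v0d2 beside MLL-AF9, and 11 for Lgmn and 12 for Sgsh beside E2A-HLF) 28 of 30 called genes stayed called in the MLL-AF9 cotransduction, 17 of 25 in the E2A-HLF cotransduction and 0 of 4 in the stable cells. In the stable cells the total of 4 called became 0 without a filter on low values, 0 without the variance trend, and 8 with each library scaled to the same total, with or without Rn45s (leaving out Rn45s was chosen after seeing the data). Called higher became 0 without the filter or the trend, and called lower 2 under quantile normalization and 4 under either such scaling. Leaving out any 1 library gave 0 called in the stable cells. Scaling to the same total also turned the share of higher calls over all genes in the stable cells from 66.0% to 34.3%, and moved the median of all genes in the MLL-AF9 cotransduction from 0.01 to -0.10, where 26 lysosomal genes were higher and 4 lower. Calls over all genes in the stable cells were 673, but 41 without a filter, 278 without the trend, 299 with the spread of 12 libraries, 1156 at the same total, 1141 without Rn45s as well and 67 to 219 with a library left out. With a replicate block 30, 22 and 5 lysosomal genes were called, against 30, 25 and 4, with Psap, Lamp1 and Tpp1 not called beside E2A-HLF; same-numbered libraries correlated at 0.067, 0.289 and 0.319, and the 2 groups share only a number. The causes of these shifts were not tested. Depth is unknown, and 2 libraries per group limit what small changes can show.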
